A study of Arabidopsis thaliana with 4 samples.

Results

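Most of the genes described here are named factors that edit, cut, splice or stabilise RNA inside plastids and mitochondria of Arabidopsis thaliana. All were chosen by locus identifier, from pentatricopeptide repeat (PPR) proteins with an established name and from the MORF family of editing cofactors. GUN1, SVR7 and PPR40 are listed for signalling, translation and respiration instead. The list held 45 loci. Counts were present for 44 of them among the 33977 gene rows of each library, and 1 member is not analysed here. Of the 44, 25 encode plastid proteins, 18 encode mitochondrial proteins, and 1, MORF8, encodes a protein imported into both organelles. The samples were 2 single plants that overexpress PPD3 (PPD3_OE) and 2 single plants of Col-0, the common laboratory wild type. PPD3 belongs to the PsbP-domain proteins of the chloroplast. Both genotypes grew in peat mix at 22 °C with a 16 h day and were frozen as they bolted, the stage at which the stem that bears flowers appears. The labels describe the tissue as whole plants in 1 field and as the rosette in another. They name neither the promoter that drives PPD3 nor how many transgenic lines were used, and plant age was not given in the sources used here. Polyadenylated RNA was sequenced as 150-bp single reads, without strand information.

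All of these factors are encoded in the nucleus, made in the cytosol and imported. A PPR protein carries tandem helical repeats that read an RNA sequence base by base, so most members act at 1 or a few sites in an organelle transcript. In editing, a C of the transcript becomes a U, which restores a conserved codon or creates a start codon. The deaminase activity is supplied by a DYW domain, named after the last 3 residues of the protein, which some PPR proteins carry themselves and others borrow from a partner. MORF proteins bind PPR proteins and are needed at many editing sites. Plastid targets include ndh transcripts for the chloroplast NADH dehydrogenase-like complex and rpo transcripts for the plastid RNA polymerase. Mitochondrial targets include the nad transcripts of respiratory complex I.

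The start of ndhD in the plastid genome shows what such a factor changes. The first 30 bases of the annotated coding sequence (TAIR10.1, plastid genome positions 117138 to 117167, minus strand) are printed with the first codon in capitals. The genome carries ACG there, and CRR4 is the factor needed to convert its middle base so that translation can start.
ndhD: ACGaatgattttccttggttaacaataatt
CRR21, CRR22, CRR28 and OTP85 act at other sites of the same transcript.

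The ends of the coding sequences show which members end in the exact DYW codons. Each line gives the last 45 bases, stop codon included, from RefSeq's TAIR10.1. Capitals mark an exact match to the codons GACTACTGG, GACTATTGG, GATTACTGG or GATTATTGG before the stop. The first 4 lines are members with that match, and the last 4 are members without it, among them DOT4 and OTP81, which stand high in the comparison that follows.
CRR2: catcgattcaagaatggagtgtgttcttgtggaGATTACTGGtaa
OTP84: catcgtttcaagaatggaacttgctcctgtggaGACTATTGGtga
REME1: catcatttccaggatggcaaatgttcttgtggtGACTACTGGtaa
MEF22: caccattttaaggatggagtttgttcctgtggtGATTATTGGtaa
DOT4: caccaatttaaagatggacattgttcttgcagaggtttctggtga
OTP81: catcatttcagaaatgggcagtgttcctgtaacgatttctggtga
CRR4: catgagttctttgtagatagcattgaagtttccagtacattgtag
SLO1: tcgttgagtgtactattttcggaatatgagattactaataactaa
The positions are chr3:17231975-17232019, minus strand for CRR2, chr3:21255731-21255775, minus strand for OTP84, chr2:1183408-1183452, plus strand for REME1 and chr3:4057027-4057071, minus strand for MEF22. Those of the others are chr4:10307421-10307465, plus strand for DOT4, chr2:12715056-12715100, plus strand for OTP81, chr2:18694816-18694860, minus strand for CRR4 and chr2:9511036-9511080, plus strand for SLO1. The match was found in 10 of the 44 members, 22.7%, against 59 of 27444 protein-coding nuclear genes in the files, 0.215%. An exact match misses variant endings, so its absence does not show that a member lacks the domain. Of the 28 editing PPR members 9 had it, 32.1%. The tenth was CRR2, which is listed for cutting the RNA between rps7 and ndhB.

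Gene structure was shared by most PPR members. A single coding exon was annotated for 32 of the 40 PPR members, 80%, against 23.3% of protein-coding nuclear genes. Among the exceptions, the plastid PPR gene AT5G04810 had 10 coding exons, and GUN1 and YS1 had 4 each. The 4 MORF members with counts, MORF1, MORF3, MORF8 and MORF9, had 4 coding exons each. Median coding length was 2056.5 bp for the PPR members, 961.5 bp for the MORF members and 1047 bp for all protein-coding nuclear genes.

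The libraries held 40727172 and 34793720 gene counts in PPD3_OE plants 1 and 2, and 36990201 and 33771093 in Col-0 plants 1 and 2. Reads of the 44 members made up 0.131% and 0.161% of gene counts in PPD3_OE plants, against 0.114% and 0.099% in Col-0 plants. PPD3 (AT1G76450) had 2836 and 3264 CPM (counts scaled to a common library total, with edgeR's TMM factors) in PPD3_OE plants, against 103 and 70.7 CPM in Col-0 plants, so the labels and the overexpressed gene go together. Every row for a plastid-encoded gene (133) or a mitochondria-encoded gene (152) was listed at 0 in all 4 libraries. The transcripts on which the members act could therefore not be compared. In whole-plant RNA, more cells that express a gene and more RNA per cell cannot be told apart.

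Of the 44 members, 43 passed the edgeR filter on low counts. The exception was MEF19 (AT3G05240), a mitochondrial editing factor for ccb206, with 0 counts in each library. Its gene overlaps AT3G05230, and reads over 2 genes are left out by the kind of counting whose row names the files carry. A link between this overlap and the 0 counts was not tested. An overlap with another annotated gene holds for 17 of the 44 members, PPR596, OTP81, PGR3, MORF3 and MORF9 among them, and the library kit does not mark strand, so part of their reads may have been lost or may belong to the neighbour.

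Levels per length spanned a wide range. MORF8 (AT3G15000) stood highest, with a mean over the 4 plants of 98.6 CPM per kb of exon, at the 94.9th percentile of all genes tested. MORF9 (AT1G11430) had 97.8 and GUN1 (AT2G31400), a plastid protein of retrograde signalling to the nucleus, had 88.0 CPM per kb. At the other end MEF22 (AT3G12770), which edits nad3, had 0.125 CPM per kb, at the 0.3rd percentile. The median member stood at the 22.9th percentile of all genes tested by level per length.

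By role, the MORF members were the most abundant per length and the mitochondrial PPR members the least. The median of the 4 MORF members was 61.4 and 73.5 CPM per kb in PPD3_OE plants, against 49.7 and 42.0 CPM per kb in Col-0 plants. Plastid PPR members with roles other than editing (9 genes) had medians of 15.2 and 18.6 CPM per kb in PPD3_OE plants, against 13.2 and 9.37 CPM per kb in Col-0 plants. Plastid editing PPR members (15 genes) had 2.63 and 2.95 CPM per kb in PPD3_OE plants, against 3.05 and 2.43 CPM per kb in Col-0 plants. In that group alone the plant medians of the 2 genotypes interleaved among the groups of 4 or more genes. Mitochondrial editing PPR members (12 genes) had 1.74 and 1.72 CPM per kb in PPD3_OE plants, against 1.35 and 1.25 CPM per kb in Col-0 plants. The 3 mitochondrial PPR members of other roles, BIR6, OTP43 and PPR40, had medians of 1.18 and 1.64 CPM per kb in PPD3_OE plants, against 1.23 and 1.33 CPM per kb in Col-0 plants.

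**Figure D1:**
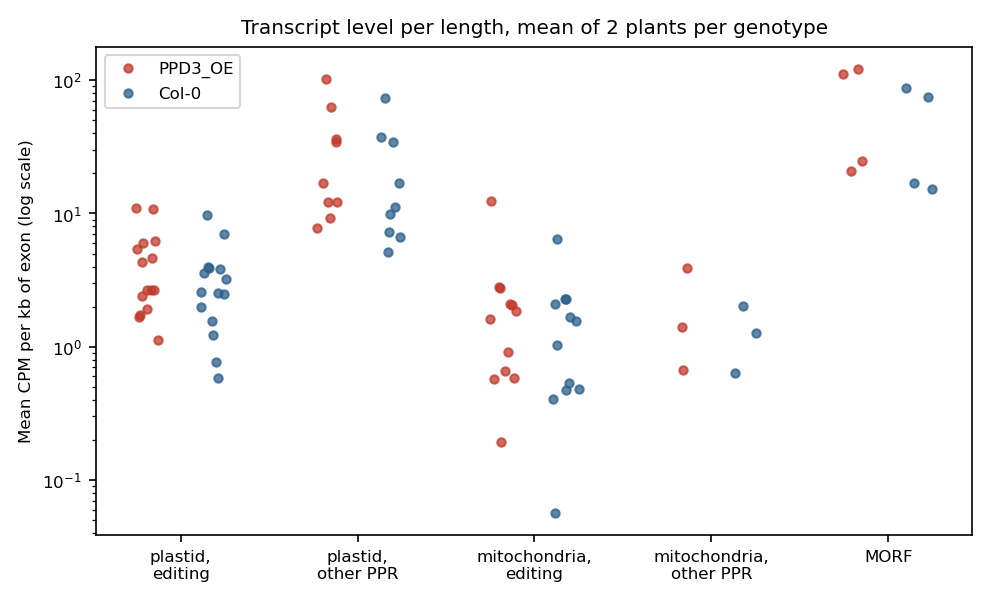
Mean CPM per kb of exon (log scale) for each tested member, with PPD3_OE points left of Col-0 points in each role group. The group medians of plastid PPR members of other roles and of MORF members lie above those of the editing PPR members, single members overlap between these groups, and MEF22 is the lowest point in both genotypes.

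The comparison of PPD3_OE with Col-0 asks how the transcripts of these factors stand under PPD3 overexpression. Most members stood higher in PPD3_OE plants, in both organelle groups, but no single member passed the threshold. The log2 fold change was positive for 40 of the 43 members (93%) and negative for 3, against positive for 51.2% of the 19919 genes tested. The median was 0.46, against 0.01 for all genes tested. Both PPD3_OE plants lay above both Col-0 plants for 33 of 43 members, where 33.9% of all genes did so. Both lay below for 1 member, MEF1, where 33% of all genes did so. Summed over the 43 members, the level was 1480 ± 211 CPM in PPD3_OE plants and 1052 ± 130 CPM in Col-0 plants (SD, n = 2 each), a ratio of 1.41.

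No member was called by edgeR's quasi-likelihood test at a Benjamini-Hochberg adjusted p under 0.05. Across all genes 0% were called higher and 0.00502%, which is 1 gene, lower. PPD3 itself was not called either, at a log2 fold change of 5.14 (edgeR adjusted p = 0.0623). That adjusted p was shared by 681 genes, DOT4 among them. At an adjusted p under 0.10, 9 of the 43 members (20.9%) were higher and 0 lower, beside 9.56% of all genes higher and 11.2% lower. DESeq2's Wald test at an adjusted p under 0.05 called 10 members higher (23.3%) and 0 lower, beside 8.41% of all genes higher and 9.72% lower. At an unadjusted edgeR p under 0.05 there were 17 members higher (39.5%) and 0 lower, beside 16.1% of all genes higher and 17% lower. With 2 plants against 2, an exact permutation test of 1 gene cannot go below p = 0.333 (two-sided). The labels call the plants biological replicates, and with 2 per genotype the spread behind each p-value is poorly known.

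**Figure D2:**
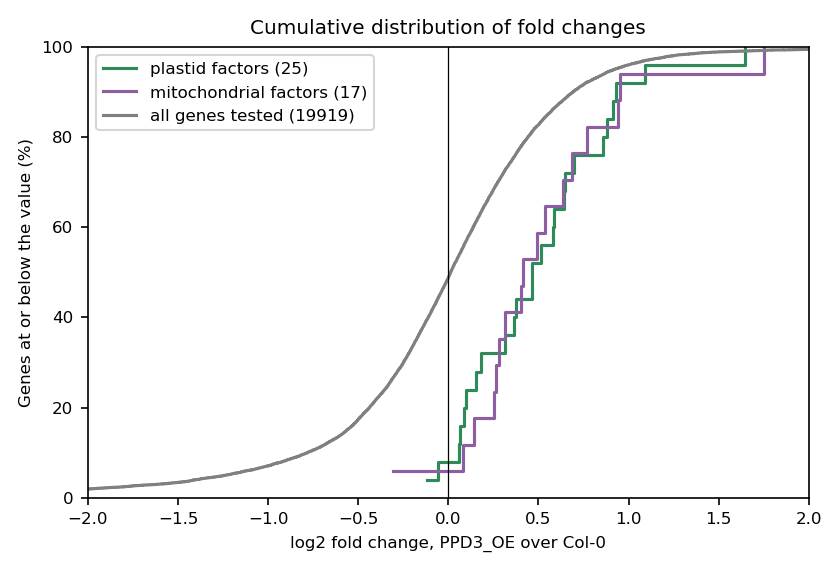
Cumulative distribution of log2 fold changes (PPD3_OE over Col-0) for plastid factors (25 genes), mitochondrial factors (17 genes) and all genes tested (19919); the axis runs from -2 to 2. The curves of both factor groups lie to the right of the curve for all genes, with medians of 0.47 and 0.42 against 0.01.

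Among plastid editing factors, 14 of 15 had a positive log2 fold change, with a median of 0.38, and 10 of 15 (66.7%) lay higher without overlap, beside 33.9% of all genes. DOT4 (AT4G18750), which edits rpoC1 and whose mutants have defective vein patterns, stood furthest apart. It had 6.27 and 8.20 CPM in PPD3_OE plants, against 2.60 and 2.01 CPM in Col-0 plants. Both PPD3_OE plants lay far above both Col-0 plants, a log2 fold change of 1.65 ± 0.24 (SE, edgeR adjusted p = 0.0623, DESeq2 adjusted p = 3.5e-05). OTP81 (AT2G29760), which edits a site in the rps12 intron, had 13.2 and 19.9 CPM in PPD3_OE plants, against 9.14 and 8.36 CPM in Col-0 plants. The groups did not overlap, and PPD3_OE plant 2 was well above plant 1 (log2 fold change 0.92 ± 0.23, edgeR adjusted p = 0.0887). OTP80 (AT5G59200), which edits rpl23, lay just outside the looser threshold, with 1.60 and 2.07 CPM in PPD3_OE plants against 1.00 and 0.919 CPM in Col-0 plants (edgeR adjusted p = 0.1002).

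Other plastid editing factors moved less or were spread more widely within a genotype. ECB2 (AT1G15510, accD and ndhF) had a log2 fold change of 0.65 ± 0.24, CRR21 (AT5G55740, ndhD) one of 0.64 ± 0.26, and YS1 (AT3G22690, rpoB) one of 0.51 ± 0.20. OTP84 (AT3G57430, ndhB, ndhF and psbZ) and OTP86 (AT3G63370, rps14) had 0.47 ± 0.14 and 0.38 ± 0.12. None of these 5 overlapped between genotypes. For CRR22 (AT1G11290, ndhB, ndhD and rpoB) the log2 fold change was 0.18 ± 0.14, and for OTP82 (AT1G08070, ndhB and ndhG) 0.09 ± 0.16. LPA66 (AT5G48910, psbF), CLB19 (AT1G05750, rpoA and clpP), OTP85 (AT2G02980, ndhD) and CRR28 (AT1G59720, ndhB and ndhD) overlapped between genotypes, with log2 fold changes between 0.06 and 0.15. CRR4 (AT2G45350), the factor for the ndhD start codon printed above, had 3.22 and 4.0 CPM in PPD3_OE plants, against 4.76 and 2.73 CPM in Col-0 plants. Both PPD3_OE values lay between the 2 Col-0 values (log2 fold change -0.06 ± 0.33, edgeR adjusted p = 0.922). The 5 factors of ndhD thus ran from -0.06 to 0.64.

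Plastid PPR members with roles other than editing, GUN1 and SVR7 among them, showed a median log2 fold change of 0.58, with 8 of 9 positive. Higher without overlap were 7 of 9 (77.8%), beside 33.9% of all genes. CRR2 (AT3G46790), whose coding end is printed above, had 17.1 and 19.8 CPM in PPD3_OE plants, against 12.9 and 11.6 CPM in Col-0 plants. Both plants of each genotype were close together, and the log2 fold change was 0.59 ± 0.13 (edgeR adjusted p = 0.0779). OTP51 (AT2G15820), needed to splice an intron of ycf3, had 29.4 and 38.4 CPM in PPD3_OE plants, against 21.3 and 16.1 CPM in Col-0 plants. The groups did not overlap (log2 fold change 0.86 ± 0.21, edgeR adjusted p = 0.0856). The PPR gene AT5G46580 had 119 and 158 CPM in PPD3_OE plants, against 88.7 and 61.7 CPM in Col-0 plants. Its adjusted p of 0.099998 lay at the edge of the looser threshold (edgeR, log2 fold change 0.88 ± 0.25).

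SVR7 (AT4G16390), which aids expression of the ATP synthase genes atpB and atpE, had 63.0 and 115 CPM in PPD3_OE plants, against 46.1 and 37.2 CPM in Col-0 plants. PPD3_OE plant 2 was far above the other 3 plants, so the log2 fold change of 1.09 had an SE of 0.33 (edgeR adjusted p = 0.109, DESeq2 adjusted p = 0.014). GUN1 had 319 and 388 CPM in PPD3_OE plants, against 280 and 233 CPM in Col-0 plants, with no overlap (log2 fold change 0.46 ± 0.18, edgeR adjusted p = 0.161). PGR3 (AT4G31850, petL RNA) and SEL1 (AT4G18520, rpoA and accD transcripts) had log2 fold changes of 0.58 ± 0.22 and 0.36 ± 0.11 without overlap. HCF152 (AT3G09650, psbH to petB RNA) overlapped between genotypes, at 0.31 ± 0.19. AT5G04810 had 116 and 108 CPM in PPD3_OE plants, against 135 and 108 CPM in Col-0 plants. It overlapped between genotypes and had the lowest plastid log2 fold change, -0.12 ± 0.16 (edgeR adjusted p = 0.629).

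Of the mitochondrial editing PPR factors, 11 of 12 had a positive log2 fold change, with a median of 0.45. Each of these 11 (91.7%) lay above both Col-0 plants in both PPD3_OE plants, beside 33.9% of all genes. PPR596 (AT1G80270), which affects editing of rps3, had 24.2 and 33.3 CPM in PPD3_OE plants, against 14.6 and 15.1 CPM in Col-0 plants. The Col-0 plants were nearly equal and both PPD3_OE plants lay above them (log2 fold change 0.95 ± 0.19, edgeR adjusted p = 0.0685). SLO1 (AT2G22410), which edits nad4 and nad9, had 3.52 and 3.65 CPM in PPD3_OE plants, against 2.22 and 2.38 CPM in Col-0 plants. It had close values within each genotype (log2 fold change 0.64 ± 0.18, edgeR adjusted p = 0.0996, DESeq2 adjusted p = 0.159). MEF22 had the highest log2 fold change of all members, 1.75 ± 0.64, but from only 16 and 16 reads in PPD3_OE plants, against 2 and 7 reads in Col-0 plants (edgeR adjusted p = 0.146).

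REME1 (AT2G03880, nad2) and SLG1 (AT5G08490, nad3) had log2 fold changes of 0.77 ± 0.23 and 0.54 ± 0.24. MEF21 (AT2G20540, cox3), MEF18 (AT5G19020, nad4), MEF11 (AT4G14850, cox3, nad4 and ccb203), OTP87 (AT1G74600, nad7 and atp1), MEF9 (AT1G62260, nad7) and AHG11 (AT2G44880, nad4) ran from 0.26 to 0.49. MEF1 (AT5G52630), which edits rps4, nad7 and nad2, went the other way. It had 3.74 and 3.50 CPM in PPD3_OE plants, against 4.84 and 4.11 CPM in Col-0 plants. Both PPD3_OE plants lay below both Col-0 plants, but the difference did not pass the test (log2 fold change -0.30 ± 0.18, edgeR adjusted p = 0.302).

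BIR6 (AT3G48250), needed to splice nad7, had 8.31 and 11.3 CPM in PPD3_OE plants, against 5.25 and 4.94 CPM in Col-0 plants. The groups did not overlap (log2 fold change 0.94 ± 0.20, edgeR adjusted p = 0.0751). The splicing factor OTP43 (AT1G74900, nad1) had 1.22 and 0.992 CPM in PPD3_OE plants, against 0.947 and 1.15 CPM in Col-0 plants, and PPR40 (AT3G16890), linked to respiratory complex III, had 2.97 and 4.11 CPM in PPD3_OE plants, against 3.08 and 3.33 CPM in Col-0 plants. Both overlapped between genotypes, with log2 fold changes of 0.08 ± 0.28 and 0.14 ± 0.23. The signs of the log2 fold changes of OTP43, CRR4 and AT5G04810 turned when Col-0 plant 1 was left out, to -0.08, 0.37 and 0.02.

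The MORF cofactors had positive log2 fold changes for 4 of 4, between 0.28 and 0.70. All 4 (100%) lay higher in PPD3_OE without overlap, beside 33.9% of all genes. MORF1 (AT4G20020), a mitochondrial cofactor, had 35.1 and 45.2 CPM in PPD3_OE plants, against 24.5 and 25.3 CPM in Col-0 plants (log2 fold change 0.69 ± 0.16, edgeR adjusted p = 0.0777). MORF9, of plastids, had 105 and 146 CPM in PPD3_OE plants, against 85.3 and 69.7 CPM in Col-0 plants (log2 fold change 0.70 ± 0.22, edgeR adjusted p = 0.115, DESeq2 adjusted p = 0.040). PPD3_OE plant 2 was the highest plant in all 4 MORF members. MORF8, which serves both organelles, had 168 and 196 CPM in PPD3_OE plants, against 142 and 144 CPM in Col-0 plants (log2 fold change 0.35 ± 0.14, edgeR adjusted p = 0.161). MORF3 (AT3G06790), of mitochondria, had 19.3 and 21.5 CPM in PPD3_OE plants, against 17.0 and 16.5 CPM in Col-0 plants (log2 fold change 0.28 ± 0.11, edgeR adjusted p = 0.167). The Col-0 plants were close together for MORF1, MORF3 and MORF8 and further apart for MORF9.

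**Figure D3:**
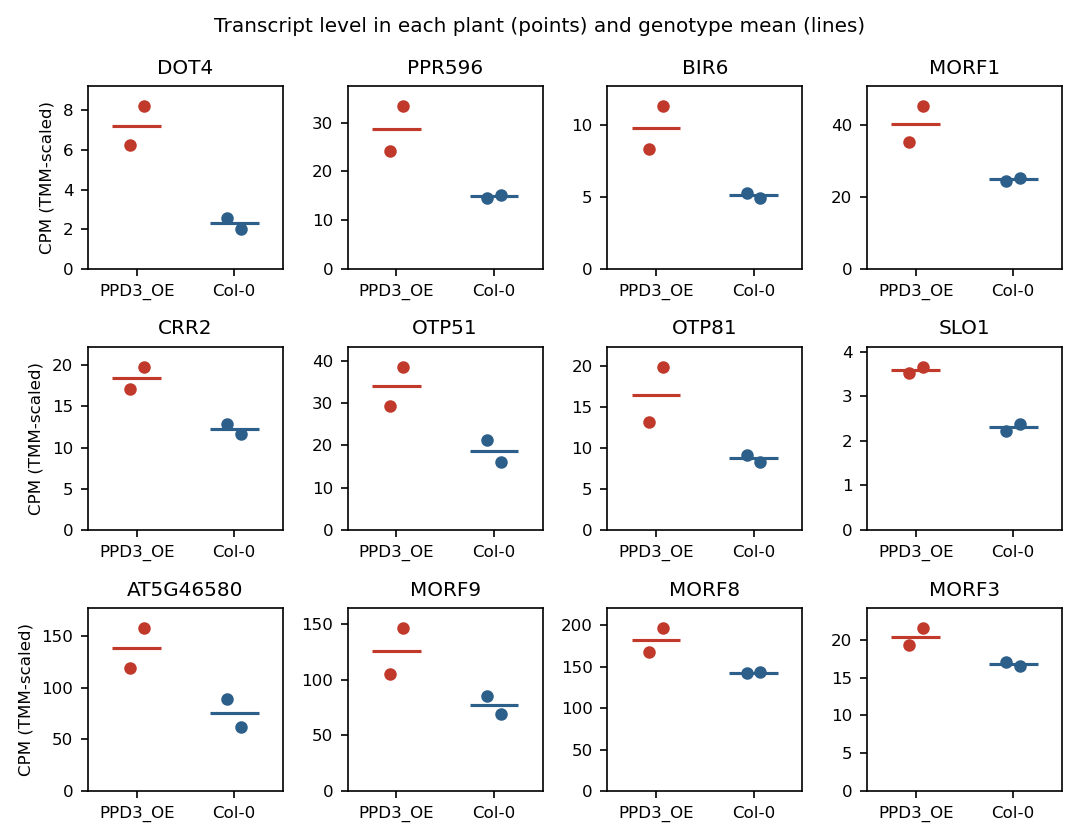
CPM (TMM-scaled, axes from 0) in each plant for the 9 members with an edgeR adjusted p under 0.10 and for the other 3 MORF members, with PPD3_OE left of Col-0 and lines at the genotype means. In all 12 panels both PPD3_OE plants lie above both Col-0 plants.

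**Figure D4:**
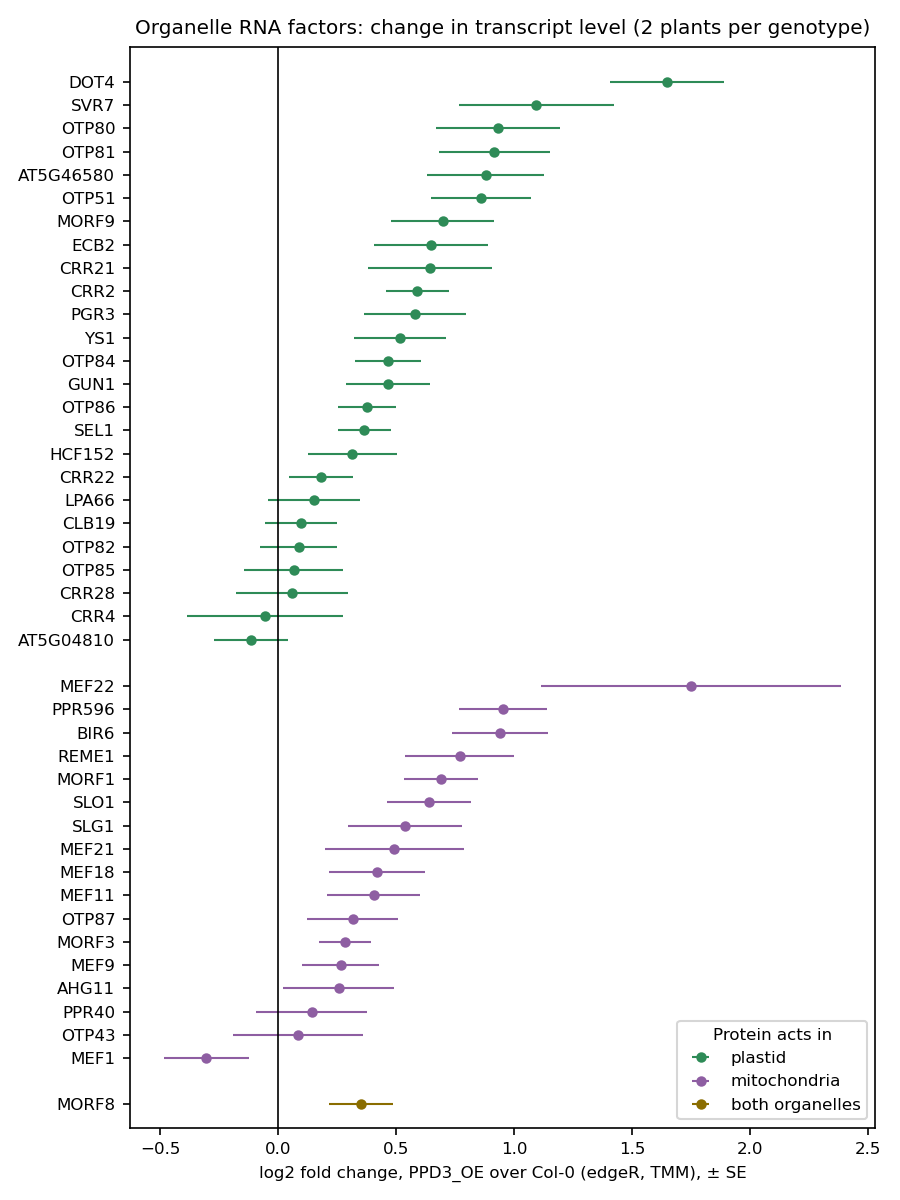
Log2 fold change (PPD3_OE over Col-0) with its SE for each of the 43 tested members, by the organelle in which the protein acts. Points lie right of 0 for 40 members and left of 0 for AT5G04810, CRR4 and MEF1.

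Plastid and mitochondrial factors stood higher by amounts that could not be separated at this spread between plants. The median log2 fold change was 0.47 for 25 plastid members, 23 of them positive, and 0.42 for 17 mitochondrial members, 16 of them positive. The difference of the medians was 0.05, smaller than its spread of 0.152 between plants of a genotype, and changed sign with the plants used, at -0.15 without Col-0 plant 2 and 0.20 without PPD3_OE plant 2. PPD3_OE lay higher without overlap for 18 of 25 plastid (72%) and 14 of 17 mitochondrial members (82.4%), beside 33.9% of all genes. Summed levels were 1036 and 1276 CPM in PPD3_OE plants, against 906 and 720 CPM in Col-0 plants, for plastid members. For mitochondrial members they were 127 and 158 CPM in PPD3_OE plants, against 96.4 and 96.7 CPM in Col-0 plants. The plastid sum was 8.15 and 8.09 times the mitochondrial sum in PPD3_OE plants, and 9.40 and 7.45 times in Col-0 plants, so this ratio overlapped between genotypes. The median level per length of plastid members was 3.04 and 4.06 times that of mitochondrial members in PPD3_OE plants, and 2.76 and 2.57 times in Col-0 plants, without overlap. On the log2 CPM scale, without correction for length, the plastid median exceeded the mitochondrial one by 2.17 and 2.26 in PPD3_OE plants. In Col-0 plants it did so by 1.71 and 1.80, again without overlap. These 2 measures compare group medians, which can fall on different genes in different plants. The log2 fold changes compare each gene with itself, and the difference of their medians was 0.05.

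The Col-0 plants were ordered differently in the plastid and mitochondrial groups, while the PPD3_OE plants were ordered alike in both, given here as a description without a test. Col-0 plant 1 lay above Col-0 plant 2 for 24 of 25 plastid members, with a median log2 difference of 0.31. It did so for only 6 of 17 mitochondrial members, with a median of -0.05, and for 10082 of all 19919 genes tested. Among factors outside the list, it did so for 11 of 11 plastid editing and 21 of 22 other plastid factors. For mitochondrial factors outside the list the order was less clear, at 14 of 22 editing factors (median 0.05) and 9 of 17 others (median 0.01). In PPD3_OE, plant 2 lay above plant 1 for 20 of 25 plastid and 14 of 17 mitochondrial members, and for 35 of all 43. Over all 19919 genes tested it did so for 10862. The median of plant 1 minus plant 2 was -0.26 for plastid and -0.24 for mitochondrial members on the log2 scale. Leaving out Col-0 plant 2 lowered the median log2 fold change of plastid members to 0.32, and leaving out Col-0 plant 1 raised it to 0.57, while the mitochondrial median was 0.47 and 0.44 in those fits. The mitochondrial median depended on the PPD3_OE plants, at 0.22 without PPD3_OE plant 2 and 0.59 without PPD3_OE plant 1, and the plastid median was 0.43 and 0.59 in those fits. The comparison for plastid members therefore rested in part on which Col-0 plant was used, and 20 of 25 were positive against Col-0 plant 1 alone.

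**Figure D5:**
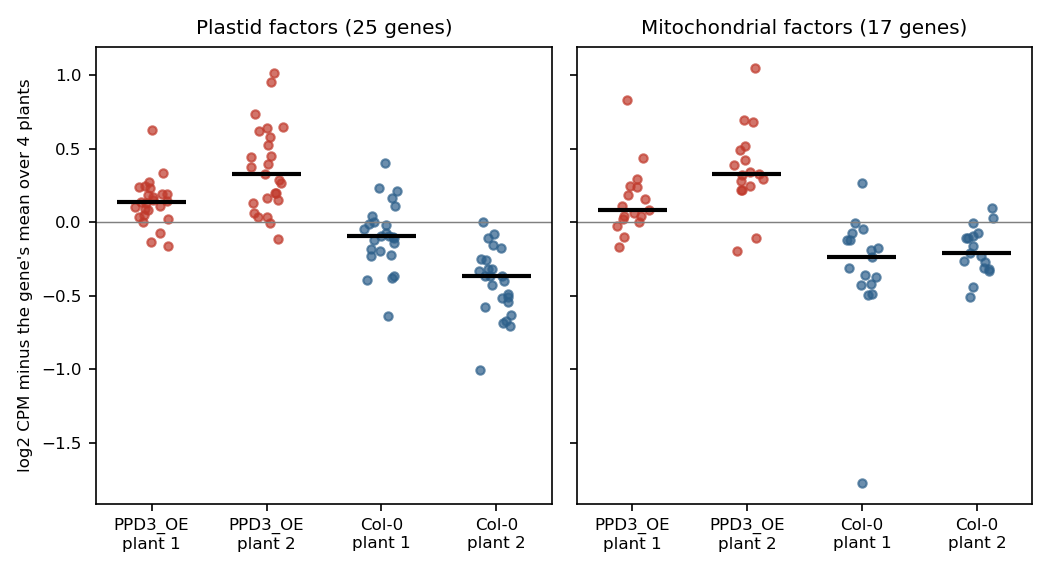
Log2 CPM of each member minus its mean over the 4 plants, for plastid (left) and mitochondrial (right) factors, with black lines at the median of each plant. PPD3_OE plant 2 is highest in both panels (medians of 0.33), and Col-0 plant 2 lies below Col-0 plant 1 among plastid factors (-0.37 and -0.09) but not among mitochondrial factors (-0.21 and -0.23).

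Other genes of the same pathway that are not in the list showed the same direction in most cases, and none of them was called by edgeR at an adjusted p under 0.05. The first list held other plastid editing factors together with plastid RNA-binding proteins. Of its 11 genes tested, 11 had a positive log2 fold change (median 0.55). At an adjusted p under 0.10, 4 (36.4%) were higher, beside 9.56% of all genes. The RNA-binding protein CP33 (AT3G52380) had 222 and 336 CPM in PPD3_OE plants, against 148 and 112 CPM in Col-0 plants (log2 fold change 1.10 ± 0.27, edgeR adjusted p = 0.0852). Its relative CP31B (AT5G50250) had 89.8 and 101 CPM in PPD3_OE plants, against 66.1 and 56.5 CPM in Col-0 plants (log2 fold change 0.64 ± 0.14, edgeR adjusted p = 0.0755). Neither overlapped between genotypes. Among 22 other plastid splicing, processing and stability factors, 18 were positive (median 0.43), and 2 were higher at an adjusted p under 0.10, which is 9.09% and near the 9.56% of all genes. These were WTF1 (AT4G01037), a splicing factor, with 52.8 and 72.2 CPM in PPD3_OE plants against 34.7 and 30.4 CPM in Col-0 plants, and the PPR protein EMB2453 (AT4G39620), with 33.6 and 39.0 CPM in PPD3_OE plants against 27.0 and 23.3 CPM in Col-0 plants.

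Of 22 other mitochondrial editing factors, 20 were positive (median 0.40) and 4 (18.2%) were higher at an adjusted p under 0.10, beside 9.56% of all genes. GR-RBP3 (AT5G61030), an RNA-binding editing factor, had 28.6 and 35.0 CPM in PPD3_OE plants, against 15.5 and 16.7 CPM in Col-0 plants (log2 fold change 0.98 ± 0.14, edgeR adjusted p = 0.0623). The PPR locus AT3G02330 had 3.44 and 4.06 CPM in PPD3_OE plants, against 1.73 and 1.58 CPM in Col-0 plants (log2 fold change 1.18 ± 0.20, edgeR adjusted p = 0.0642). Both were well separated between genotypes. Of 17 other mitochondrial splicing and processing factors, 14 were positive (median 0.31), and 2 were higher at an adjusted p under 0.10, which is 11.8% and near the 9.56% of all genes, while DESeq2 called 0 under 0.05. The PPR gene AT2G37230 had 31.3 and 34.1 CPM in PPD3_OE plants, against 24.4 and 24.6 CPM in Col-0 plants (log2 fold change 0.42 ± 0.10, edgeR adjusted p = 0.0852). GRP23 (AT1G10270) had 16.3 and 20.0 CPM in PPD3_OE plants, against 12.5 and 11.5 CPM in Col-0 plants (log2 fold change 0.59 ± 0.15, edgeR adjusted p = 0.0878). Neither overlapped between genotypes. No gene of these 4 lists was lower at that threshold.

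Markers of dividing cells also stood higher in PPD3_OE plants, although none was called by edgeR at an adjusted p under 0.05. All 11 tested, among them CYCB1;1 and SYP111, had positive log2 fold changes (median 0.70), and 9 (81.8%) were higher at an edgeR adjusted p under 0.10, beside 9.56% of all genes. Their summed level was 197 and 183 CPM in PPD3_OE plants, against 121 and 104 CPM in Col-0 plants. Floral organ markers such as AP1 and AG were positive for 8 of 8, with sums of 28.3 and 23.0 CPM in PPD3_OE plants, against 18.1 and 9.22 CPM in Col-0 plants, and none was called at an adjusted p under 0.10. Rosette leaf markers were abundant in every plant, with sums of 35930 and 40450 CPM in PPD3_OE plants, against 42900 and 36820 CPM in Col-0 plants. Of these 8, 3 had positive and 5 negative log2 fold changes, from -1.79 for LHB1B1 to 0.68 for RBCS1A, and 1 was lower at an edgeR adjusted p under 0.10 (3 by DESeq2 under 0.05). None of the 27 markers was at 0 in a whole genotype. Within PPD3_OE the dividing-cell and floral sums were higher in plant 1, and the members' and rosette leaf sums were higher in plant 2. Within Col-0 each of these sums was higher in plant 1, with members' sums of 1144 and 960.5 CPM in plants 1 and 2. The part of dividing or floral tissue in the members' shift was not tested.

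Promoters were read because the members stood higher together. The window ran from 250 bases before to 50 bases after the annotated start in TAIR10.1, and both strands were searched for TGGGCC (a site II element, common in genes for organelle and ribosomal proteins) and for AAACCCT (a telo box). The letters of the 2 motifs do not overlap in the promoters shown. MORF1 and SLO1 hold both, in capitals, in either orientation (chr4:10846114-10846413, minus strand for MORF1, and chr2:9508766-9509065, plus strand for SLO1).
MORF1: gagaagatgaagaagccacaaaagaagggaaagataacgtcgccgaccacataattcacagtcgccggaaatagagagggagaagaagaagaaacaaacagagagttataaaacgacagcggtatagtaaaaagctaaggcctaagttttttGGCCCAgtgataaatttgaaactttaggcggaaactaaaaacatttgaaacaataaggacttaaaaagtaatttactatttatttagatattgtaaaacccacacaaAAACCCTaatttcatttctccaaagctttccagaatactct
SLO1: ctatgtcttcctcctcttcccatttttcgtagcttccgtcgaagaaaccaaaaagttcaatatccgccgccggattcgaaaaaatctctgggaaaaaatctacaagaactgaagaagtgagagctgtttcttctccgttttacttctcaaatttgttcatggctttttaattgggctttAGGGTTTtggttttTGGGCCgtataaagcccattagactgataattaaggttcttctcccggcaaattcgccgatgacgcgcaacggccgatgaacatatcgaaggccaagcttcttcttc
TGGGCC was found in 16 of 44 members, 36.4%, against 15.5% of 27444 protein-coding nuclear genes, with 10 of 25 plastid and 6 of 18 mitochondrial members. AAACCCT was found in 8 of 44 members, 18.2%, against 10% of those genes. It was found in 6 of 18 mitochondrial members and 1 of 25 plastid members, SEL1. Among the 9 members with an adjusted p under 0.10, DOT4, OTP51 and OTP81 held neither motif, while MEF1, the member that was lower in both PPD3_OE plants, held both. A match describes the letters in this window and is not a test of any factor.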

How the data were processed

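The authors deposited whole-number counts of reads per gene, 1 table per plant and not normalized. Per the labels' protocols, RNA was extracted with genomic DNA removal, libraries were made with a TruSeq v2 kit and sequenced as 150-bp single reads. The submitters' processing notes name TAIR10 and DESeq2. The aligner, counter and annotation are not named in the labels or files. Per the file rows, 5 entries that name no gene carry HTSeq-count names; they were removed. Of all counted reads, those without a feature made up 0.713% to 0.941%, ambiguous ones 3.67% to 4.18% and reads with several alignments 4.18% to 5.61%.

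The test was that of edgeR 4.0.16 (R 4.3.3): default filter (minimum count 10, minimum total 15), TMM scaling (factors 0.984 to 1.03), a quasi-likelihood F test of genotype on 2 residual degrees of freedom, and Benjamini-Hochberg adjustment over 19919 genes. An adjusted p under 0.05 was called. The SE is the size of the log2 fold change divided by the square root of F. DESeq2 1.42.0 was the alternative, with 4884 genes lacking an adjusted p and left out of its counts. The edgeR fit was run on simulated counts to check its median log2 fold changes, not its error rate or power. Replicates of both genotypes differed by more than sampling noise. Gene models and sequences came from RefSeq's TAIR10.1, matched by locus for 32548 of 33977 rows and 44 of 44 members. The deposited tables hold no coordinates. Compartments and targets of the members are from general knowledge. The members, gene lists and tests were chosen with earlier results of these data known. Plant values were given for members with an adjusted p under 0.05 or 0.10, for the 2 highest and 2 lowest log2 fold changes per compartment, for the MORF members and, from each other list, for the called members or else the 2 of smallest p. OTP80, GUN1 and PPR40 were added after their values were seen. Lists are described by counts and medians without a test. Alternatives were other scalings, DESeq2, other filters, organelle genes left out, a replicate block and each plant left out in turn, and, added after seeing the data, a crossed block.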

Additional observations from a re-analysis of the deposited data

How the results depend on the processing

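Under edgeR with DESeq2 size factors, library size alone, upper-quartile scaling, no filter, or at least 5 CPM in 2 libraries, 0 members were called, and the medians of plastid, mitochondrial and all members moved by less than the spread between plants. The 5 CPM filter kept only 30 members, 22 of 25 plastid and 7 of 17 mitochondrial ones, so its medians cover fewer genes. Leaving out organelle-encoded genes could change nothing, since they are listed at 0 throughout. DESeq2 called 10 members (23.3%), 11 other genes of the pathway and 3681 genes in all (8.41% higher and 9.72% lower). Its 11 were 5 of 11 other plastid editing factors, 2 of 22 other plastid factors and 4 of 22 other mitochondrial editing factors. It called 0 of 17 other mitochondrial splicing and processing factors. At an adjusted p under 0.10 edgeR had 9 members (20.9%), 12 other pathway genes and 4129 genes in all (20.7%). Its 12 were 4 of 11, 2 of 22, 4 of 22 and 2 of 17 in the same lists. The count over all genes, 1 as reported, was 13 without a filter and 0 with at least 5 CPM. Leaving out each plant in turn gave 0 called members, 0 other pathway genes and 0 genes in all. The medians then ran from 0.32 to 0.59 for plastid, from 0.22 to 0.59 for mitochondrial and from 0.32 to 0.59 for all members, and their plastid minus mitochondrial difference from -0.15 to 0.20. Of 18 named members, 3 changed sign when a plant was left out: AT5G04810 ran from -0.29 without Col-0 plant 2 to 0.024 without Col-0 plant 1, CRR4 from -0.42 to 0.37 without those plants (0.10 without PPD3_OE plant 1), and OTP43 from -0.078 without Col-0 plant 1 to 0.22 without PPD3_OE plant 2 (-0.075 without PPD3_OE plant 1). The cause was not tested. Positive members then numbered 37 to 41 of 43.

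Plants that share a number did not deviate together (correlation -0.28), and the crossed pairs had a correlation of 0.28. With so few plants per genotype, the crossed value is the same value with its sign turned. This check therefore cannot decide whether the numbers pair the plants. With the replicate block, edgeR called 0 members and 0 genes in all, on fewer degrees of freedom. With a crossed replicate block, added after seeing the data, it called 0 members and 137 genes in all.

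With 2 plants per genotype the spread between plants sets the precision. Low read counts also limit some members, MEF22 most. Among the others, OTP43 had 34 to 49 reads per plant, MEF21 33 to 54 and OTP80 32 to 71.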
